A study of Mus musculus with 8 samples.

Results

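Nt5e, the mouse gene for the surface enzyme CD73, was examined across 8 RNA sequencing libraries of mouse colon tumours. It is 1 gene of the 1428 in the deposited table and was taken by its symbol. The KO group holds 4 libraries from C57BL/6N mice labelled miR-29ab1Vilin-KO, in which miR-29a and miR-29b-1 were disrupted in the intestinal epithelium. The WT group holds 4 libraries from wild-type C57BL/6N mice. The series describes tumour induction by a DNA-damaging carcinogen, azoxymethane, given with dextran sodium sulfate, an agent that causes colitis. Villin marks intestinal epithelial cells, so the other cells of a KO tumour keep their own copies of the deleted cluster. The targeted microRNAs are not among the listed genes, so their loss was not checked here. The labels do not tie each library to a separate animal, so the spread between libraries may be technical.

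CD73 sits on the outer face of the cell membrane, held by a lipid anchor, and removes the phosphate from extracellular AMP to give adenosine. The AMP comes from ATP and ADP released by stressed or dying cells and trimmed by other ectoenzymes. Adenosine then acts on its own receptors, one of which dampens T cells, and is cleared by uptake, deamination or phosphorylation. CD73 is carried by several cell types of a colon tumour, among them epithelial cells, endothelium, fibroblasts, regulatory T cells and some B cells. In bulk tissue, fewer cells of a type and less RNA per cell cannot be told apart.

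The mature miR-29 microRNAs, some of them targeted by the genotype, are shown here because they share a seed, the part that pairs with target transcripts. The mature sequences are those of RefSeq on GRCm38.p6, written 5′ to 3′ with the seed, bases 2 to 8, in capitals.
mmu-miR-29a-3p: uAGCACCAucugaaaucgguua
mmu-miR-29b-3p: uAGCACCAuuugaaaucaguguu
mmu-miR-29c-3p: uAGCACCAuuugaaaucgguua
The first is made from Mir29a on chromosome 6 and the second from Mir29b-1 beside it, which together form the cluster named in the genotype. The same mature miR-29b-3p is also made from Mir29b-2 on chromosome 1, next to Mir29c. That second cluster is not named in the genotype. The seed match TGGTGCT was searched on the transcript strand of the longest Nt5e 3′ untranslated region in GENCODE M21, which is 1775 bases long, and was found 0 times. The shorter match GGTGCT, contained in the first, was also found 0 times there. Over 21028 mouse genes with such a region, 13.1% hold TGGTGCT and 28.3% hold GGTGCT. In the 3148 of these regions between 1420 and 2218 bases long, the shares are 16.1% and 38.7%. The Nt5e transcript used here is 3995 bases long, while the deposited gene length is 8393 bases. Any part of the counted gene outside that transcript was not searched. Nothing follows from these letters about other ways in which the microRNA could act on the gene.

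Nt5e was higher in KO tumours than in WT tumours in every pairing of libraries. It had 3828, 4655, 4844 and 4498 normalized counts in KO replicates 1 to 4, against 2918, 3001, 2508 and 2980 in WT replicates 1 to 4. Normalized counts are reads per gene divided by a size factor for each library. The groups did not overlap: KO replicate 1, the lowest KO library, stood 1.28 times above WT replicate 2, the highest WT library, a gap of 828 normalized counts. Means were 4456 ± 442 in KO and 2852 ± 232 in WT (SD, n = 4 each), a ratio of 1.56. The KO values varied by 9.92% around their mean and the WT values by 8.13%.

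**Figure D1:**
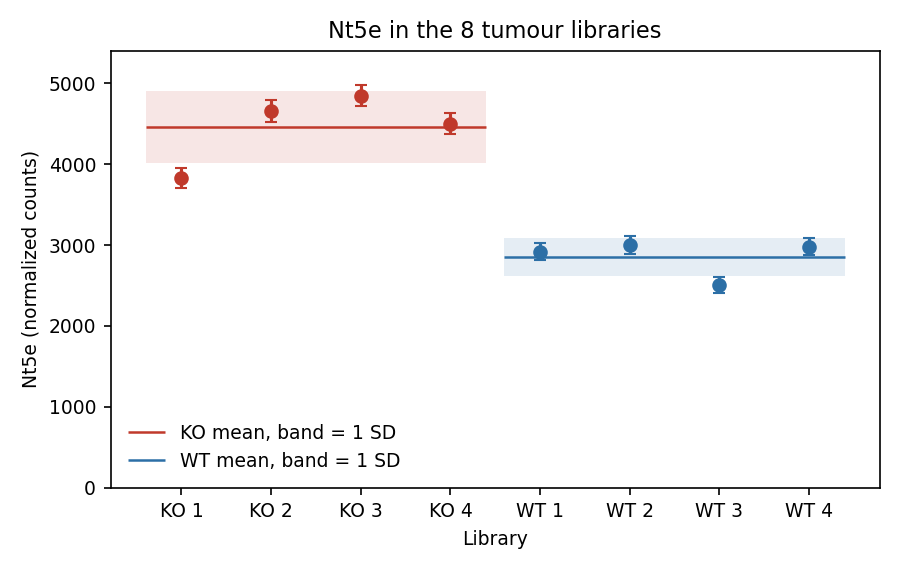
Nt5e in each library, in normalized counts, with the 4 KO libraries on the left and the 4 WT libraries on the right. Bars are exact 95% Poisson intervals of the reads, lines are group means and bands are 1 SD; the KO points sit between 3828 and 4844, above the WT points, which sit between 2508 and 3001.

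The order of the 8 libraries can be read against counting error. The normalized values correspond to between 2480 and 5444 whole reads per library for Nt5e, and the exact 95% Poisson intervals below cover counting error only. The 3 highest libraries were KO replicates 3, 2 and 4, and in that order each interval overlapped that of the next. KO replicate 1 followed with an interval of 3710 to 3949, apart from that of KO replicate 4 above it (4369 to 4630). It was also apart from WT replicate 2 below it (2893 to 3112). WT replicates 2, 4 and 1 came next, with intervals that overlapped in turn. WT replicate 3 was last, at 2410 to 2609, below WT replicate 1 (2815 to 3025). In this deposited scaling each group thus held 3 libraries close together and a lower library, KO replicate 1 and WT replicate 3. With another scaling, TMM over the listed genes, KO replicate 1 was not alone. It had 3795 and KO replicate 4 had 3801, against 4401 in KO replicate 2 and 4878 in KO replicate 3.

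Nt5e is in the table because its p-value for this same contrast was below 0.05, as it was for all 1428 listed genes, so the difference is given as a description. The authors' deposited table gives Nt5e a log2 fold change of 0.64 for KO over WT, an unadjusted p of 2.53e-05 and an adjusted p of 0.0507 from DESeq2. The gene therefore missed an adjusted p of 0.05, which 8 of the 19985 genes behind the adjustment passed (0.04%). By p-value Nt5e ranked number 10 in the table. Just inside the threshold lay Ighg2b, an immunoglobulin heavy chain constant region, with an adjusted p of 0.0461 in the authors' deposited table. Cx3cl1, a membrane-bound chemokine, had the same deposited adjusted p as Nt5e. Refits of the whole reads of the listed genes took their spread from these selected genes and differed in the call. DESeq2 gave a log2 fold change of 0.64 with a standard error of 0.13 and an adjusted p of 0.00331. The edgeR quasi-likelihood fit gave the same log2 fold change with an unadjusted p of 0.000768 and an adjusted p of 0.867. That fit put 0 of the 1428 listed genes below an adjusted p of 0.05.

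Beside the other listed genes, Nt5e showed a modest difference with little spread. In KO, 829 genes were higher by the authors' deposited table, with a median log2 fold change of 1.00, and 578 of them exceeded Nt5e. Its SD within groups was 0.14 on the scale of log2(normalized count + 1), against a median of 0.34 over the 923 listed genes with a mean of at least 50 normalized counts. A smaller SD was found for 64 of the 923, or 6.93%. The KO and WT values did not overlap in 638 of the 1428 listed genes (44.7%), and in 342 of them (23.9% of the list) KO was the higher group. Of those 342 genes, 83 had a wider gap than Nt5e on the log2 scale. Nt5e was also abundant: 72 listed genes (5.04%) had a higher mean over the 8 libraries, and the median listed gene had a mean of 179.7 normalized counts. The list was selected on this contrast, so these ranks describe the list and not the transcriptome.

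**Figure D2:**
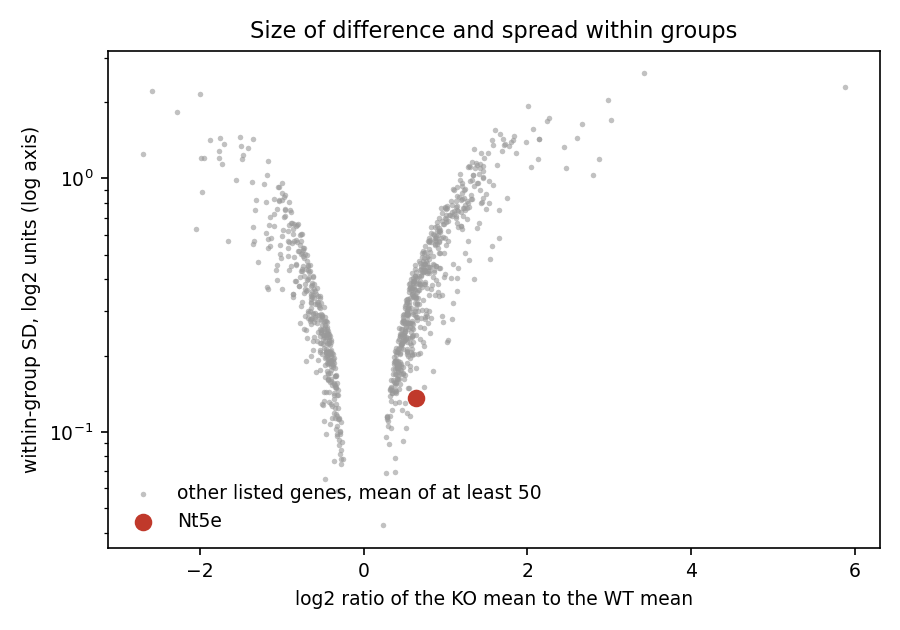
Each point is a listed gene with a mean of at least 50 normalized counts, with the log2 ratio of the KO mean to the WT mean on the horizontal axis and the SD within groups, in log2 units on a log axis, on the vertical axis. The selection of the list empties the middle; Nt5e, the large red point, lies at a log2 ratio of 0.64 and an SD of 0.14, at the lower edge of the right arm.

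In the coordinates of the deposited table, Nt5e lies on chromosome 9 from 91609850 to 91655545 on the plus strand and is annotated as protein-coding, with a gene length of 8393 bases. The values are for the whole gene and do not separate its exons or transcripts. Per kilobase of that length, the level of Nt5e was 531 normalized counts in KO and 339.8 in WT. The same quantity was 807 in KO and 444.8 in WT for Entpd8, an ectoenzyme that trims ATP and ADP upstream of CD73. Without KO replicate 4, the KO value of Entpd8 was 531, close to that of Nt5e. These levels depend on the length used. The Nt5e transcript taken from GENCODE M21 is 3995 bases long, well short of 8393, so the order of Nt5e and Entpd8 per kilobase is uncertain. For Nt5c1a, a cytosolic enzyme that also acts on AMP, it was 130.3 in KO and 85.0 in WT.

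The rest of the purine pathway was taken from 5 lists of 55 genes. Of these 55, 7 were listed (12.7%), 3 higher and 4 lower in KO, where 7.06% of all genes tested by the authors were listed. The 7 include P2ry10, higher in KO, a related receptor that binds lipids rather than nucleotides. None of the 7 passed an adjusted p of 0.05 from DESeq2 in the authors' deposited table, where their unadjusted p ran from 0.00935 to 0.0495. An edgeR fit of the whole reads put 0 of the 7 below an adjusted p of 0.05, as it did for all listed genes (0.0%). At an unadjusted p below 0.05 it held 3 of the 7, against 77.9% of the listed genes. A DESeq2 fit put 0 of the 7 below an adjusted p of 0.05, against 2.59% of the listed genes, and 7 below an unadjusted p of 0.05, against 94.9%. The KO and WT values overlapped in each of the 7, while they did not in 44.7% of the listed genes, Nt5e among them. By the authors' deposited table the median of their log2 fold changes was -1.05, against 0.48 over all listed genes. With 4 lower and 3 higher, this median depends on the direction of a single gene: the next value above it was 0.61. It does not show a shift of the pathway.

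Upstream of CD73, 2 of 11 genes for ectoenzymes and release channels were listed. Entpd8 had 1407, 1475, 1445 and 4436 normalized counts in KO replicates 1 to 4, against 1002, 1154, 1181 and 1493 in WT replicates 1 to 4. KO replicate 4 stood far above every other library, and WT replicate 4 lay above the remaining 3 KO libraries. The log2 ratio of the means was 0.86 with all libraries and 0.26 without KO replicate 4. Bst1, an ectoenzyme that acts on NAD, had 32.8, 25.7, 18.7 and 11.7 normalized counts in KO replicates 1 to 4, against 43.8, 37.0, 20.2 and 86.0 in WT replicates 1 to 4. Its groups overlapped through WT replicate 3, and the log2 ratio was -1.07, and -0.60 without WT replicate 4. Entpd1, which encodes CD39, the ectoenzyme that supplies CD73 with AMP on many immune cells, was not among the listed genes.

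Of 12 other enzymes that can act on AMP or related nucleotides, Nt5c1a was listed. It had 202.5, 186.5, 105.9 and 140.9 normalized counts in KO replicates 1 to 4, against 108.0, 92.5, 138.5 and 75.9 in WT replicates 1 to 4. KO replicates 1, 2 and 4 were above every WT library and KO replicate 3 was not, with a log2 ratio of 0.62. Downstream, 1 of 13 genes of adenosine uptake and metabolism was listed, Pnp2, a purine nucleoside phosphorylase that splits inosine and guanosine. Pnp2 had 155.2, 152.2, 134.4 and 56.8 normalized counts in KO replicates 1 to 4, against 115.8, 287.7, 192.1 and 440.1 in WT replicates 1 to 4. WT replicate 1 lay below 3 KO libraries, and the log2 ratio was -1.05, and -0.67 without WT replicate 4. Pnp2 has a close copy, Pnp, and the sources used here do not say how reads were shared between them, so its values are uncertain.

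Among the 4 adenosine receptors only Adora3 was listed, a receptor that couples to inhibitory G proteins. It had 0.964, 3.21, 8.01 and 0.978 normalized counts in KO replicates 1 to 4, against 6.81, 14.4, 16.2 and 21.2 in WT replicates 1 to 4. KO replicate 3 was above WT replicate 1, the other libraries kept to their sides, and counts this low carry a wide counting error. The log2 ratio was -2.15 with all libraries and -3.09 without KO replicate 3. Of 15 receptors for ATP, ADP or UTP and related receptors, P2ry4 and P2ry10 were listed. P2ry4, a nucleotide receptor, had between 1.78 and 5.78 normalized counts in KO. In WT it had between 0 and 46.5, with the highest value in WT replicate 3. Its log2 ratio was -2.41, and -1.15 without WT replicate 3. P2ry10, a lymphocyte receptor that binds lipids rather than nucleotides, had 17.4, 20.4, 14.2 and 83.2 in KO replicates 1 to 4, against 15.6, 11.3, 9.10 and 10.1 in WT replicates 1 to 4. Its log2 ratio was 1.55, and 0.59 without KO replicate 4. None of the 17 genes on a list of hypoxia and TGF-beta signalling, pathways known to raise CD73, was listed.

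**Figure D3:**
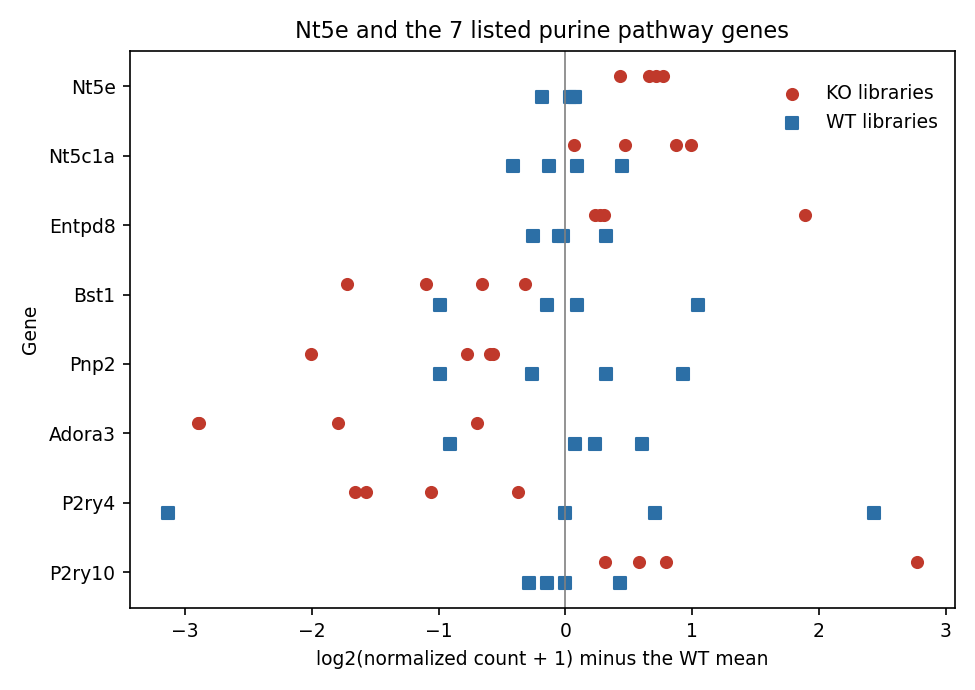
For Nt5e and the 7 listed purine pathway genes, each library's log2(normalized count + 1) minus the mean of the WT libraries, with KO libraries as red circles above WT libraries as blue squares. Nt5e shows tighter groups than the other 7 and is the gene whose groups do not overlap; Entpd8 and P2ry10 each have KO replicate 4 far to the right.

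The variation of Nt5e inside the groups was compared with that of the other listed genes, after subtracting each group's mean from log2(normalized count + 1). Pearson's r to Nt5e was then taken over the 8 libraries for the 922 other genes with a mean of at least 50 normalized counts, and serves here as a measure of likeness with no test. It was at least 0.8 for 5 genes (0.542%) and at most -0.8 for 4 genes (0.434%). The central 90% of the 922 values ran from -0.62 to 0.58. The 5 genes with the highest r were all listed lower in KO, and the 4 with the lowest r were all listed higher in KO. Over all 922 genes the median r was -0.12 for those listed higher in KO, as Nt5e is, and 0.18 for those listed lower.

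The 6 named genes most like Nt5e, each with r of at least 0.5 in both groups taken alone, were Trit1, Fam73a, Mrpl13, Cyb5r1, Tm4sf4 and Nabp1. Trit1, which modifies transfer RNAs, had an r of 0.91. Its values were 376.0, 482.2, 503.6 and 448.1 normalized counts in KO replicates 1 to 4, against 631.3, 704.8, 500.6 and 791.2 in WT replicates 1 to 4. It was lowest in KO replicate 1 and in WT replicate 3, the libraries in which Nt5e was lowest. Fam73a, a protein of the mitochondrial outer membrane, had an r of 0.89, and Mrpl13, a mitochondrial ribosomal protein, had an r of 0.87. The r was 0.83 for Cyb5r1, a cytochrome b5 reductase. It was 0.82 for Tm4sf4, a tetraspan membrane protein, and 0.797 for Nabp1, which binds single-stranded nucleic acid.

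The 6 named genes most opposite to Nt5e, under the same rule for each group and among genes with a symbol, were Gm26532, Ccnd2, Heatr5b, Gm15800, Dusp18 and Nt5c1a. The rule did not keep all 4 genes with r of at most -0.8. Ccnd2, which encodes cyclin D2 and drives entry into the cell cycle, had an r of -0.94. Its values were 11961, 6925, 6344 and 8921 normalized counts in KO replicates 1 to 4, against 4554, 4376, 7947 and 3499 in WT replicates 1 to 4. It was highest in KO replicate 1 and in WT replicate 3. The predicted gene Gm26532 had an r of -0.95, Heatr5b, a HEAT repeat protein, -0.93, and Gm15800 -0.796. Dusp18, a phosphatase, had an r of -0.79, and Nt5c1a, the cytosolic enzyme named above, -0.78.

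The likenesses were taken again without 2 libraries. In the deposited scaling, KO replicate 1 and WT replicate 3 were the libraries farthest from the median of Nt5e after the group means were subtracted. The likenesses were not taken under TMM, where KO replicate 4 was about as low as KO replicate 1. With these left out and the means taken again over 6 libraries, r fell to -0.14 for Mrpl13 and to -0.09 for Tm4sf4. It was 0.16 for Heatr5b and 0.02 for Gm15800, so the relation no longer held for these 4 genes. The other 8 kept the sign of their r. It was 0.65 for Trit1, 0.56 for Fam73a, 0.69 for Cyb5r1 and 0.78 for Nabp1. On the opposite side it was -0.79 for Ccnd2, -0.58 for Gm26532, -0.49 for Dusp18 and -0.56 for Nt5c1a. The 12 genes were chosen for a large r with these libraries in, so smaller values without them follow in part from the choice.

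**Figure D4:**
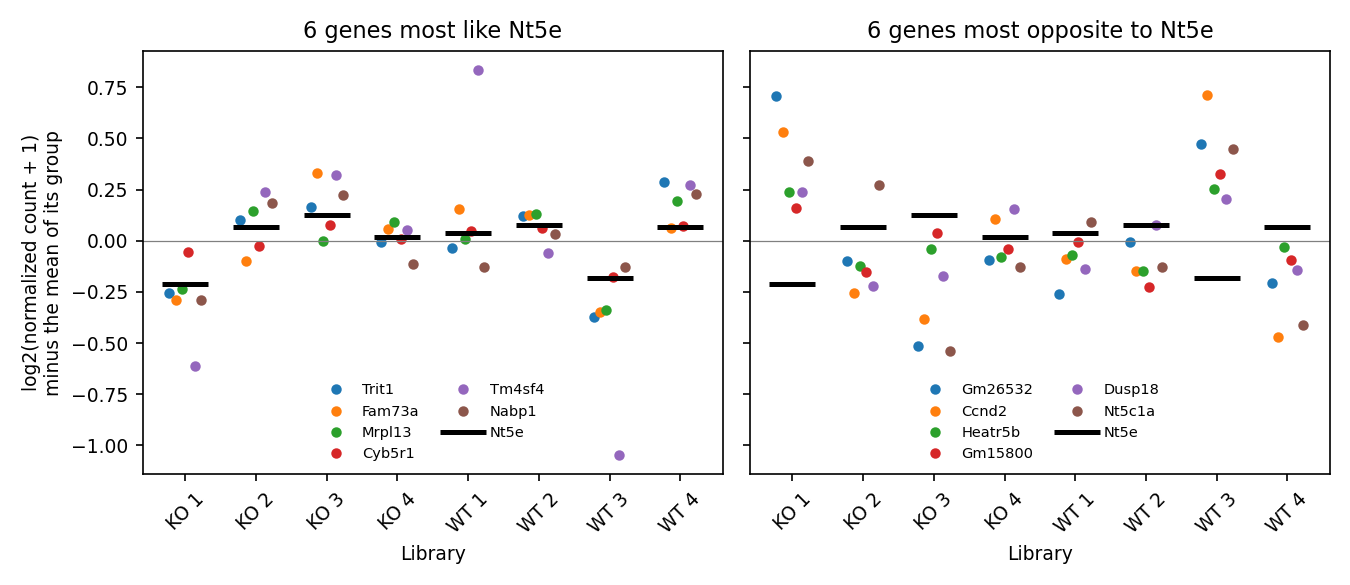
Each library's log2(normalized count + 1) minus the mean of its group, for Nt5e as black bars and for the 6 genes most like it (left) and the 6 most opposite to it (right) as coloured points. Nt5e is low in KO replicate 1 and WT replicate 3; in those libraries the genes on the left are mostly low and those on the right are high.

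Markers of cell types that can carry CD73 were set beside Nt5e. The counts of listed markers stand beside the 7.06% of all genes tested that were listed. All 12 B cell markers were listed and higher in KO, a list known from earlier results of these data. Their summed level was 261.3, 1103, 427.1 and 3540 normalized counts in KO replicates 1 to 4, against 191.6, 138.7, 201.2 and 323.7 in WT replicates 1 to 4. KO replicate 1 lay below WT replicate 4 in this sum, while its Nt5e was 3828 against 2980. KO replicate 4 had the highest sum by far, and its Nt5e was the third highest of the 8.

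Of 12 epithelial and colonocyte markers, 3 were listed, all higher in KO: the brush border genes Cdhr5, Mep1a and Ceacam20. Their sum ran from 9755 to 29307 normalized counts in KO, the highest in KO replicate 4, and from 6379 to 9257 in WT. Cdhr5 made up most of the sum and its groups did not overlap, while those of Mep1a and Ceacam20 did. Without KO replicate 4 the log2 ratio fell from 0.79 to 0.37 for Cdhr5, from 1.77 to 0.34 for Mep1a and from 1.07 to 0.33 for Ceacam20. The defining epithelial genes Epcam, Cdh1 and Vil1 were not among the listed genes, so the tissue label could not be checked on them. Of 12 T cell markers 4 were listed, with Cd4, Cd8b1 and Trbc1 higher and Il2ra, a chain of the interleukin-2 receptor carried by regulatory T cells, lower. Cd8b1 was very low and its groups overlapped, at 9.64, 0, 2.67 and 10.8 in KO replicates 1 to 4. In WT replicates 1 to 4 Cd8b1 had 0, 0, 0 and 1.01. Il2ra ran from 10.8 to 22.2 in KO and from 24.7 to 51.6 in WT. The sum of the 4, which pools these directions, was 143.3 to 170.3 in KO and 84.6 to 122.4 in WT. Of 10 fibroblast markers 2 were listed, Dpt and Mfap5, both higher, with sums of 130.2 to 200.6 in KO and 65.8 to 129.4 in WT. Dpt made up most of the sum and its groups overlapped, with KO replicate 1 at 120.5 and WT replicate 3 at 124.4. Mfap5 was low, at 5.87 to 19.3 in KO and 0 to 5.06 in WT. Lyve1, a lymphatic gene and the 1 listed marker of 8 on the endothelial list, ran from 31.1 to 159.1 in KO and from 23.6 to 50.6 in WT. It was highest in KO replicate 1, where Nt5e was the lowest of the KO libraries, and its r to Nt5e within groups was -0.77. Without KO replicate 1 and WT replicate 3 the r of Lyve1 was -0.48. With all libraries r was -0.71 for Il2ra, and for the B cell markers it ran from 0.01 (Blk) to 0.41 (Ighd). Of 8 macrophage and neutrophil markers Mpo was listed, at 0 in the 4 KO libraries and at 2.92, 0, 0 and 23.3 in WT replicates 1 to 4. Its WT level thus came mainly from WT replicate 4. The part of these cell types in the Nt5e level was not tested.

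**Figure D5:**
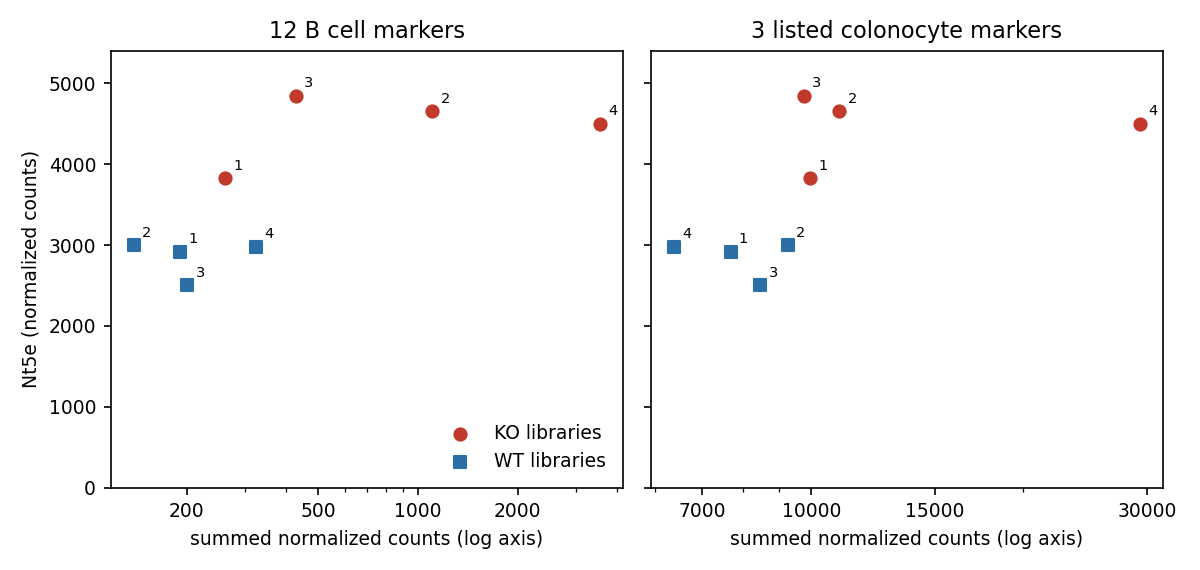
Nt5e in normalized counts against the summed normalized counts, on a log axis, of 12 B cell markers (left) and of the 3 listed colonocyte markers (right), with the replicate number beside each library. KO libraries are red circles and WT libraries blue squares; KO replicate 4 lies far to the right in each panel, with Nt5e at 4498.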

How the data were processed

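Libraries of TRIzol-extracted total RNA were prepared with a NEBNext Ultra Directional kit, per the labels' protocols. HISAT2, DESeq2 and GRCh38, a human build, are named by the submitters' processing notes, while the table's gene identifiers belong to the C57BL/6NJ mouse annotation; its coordinates are given as they stand. The sources used here do not say whether reads were counted by strand.

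The deposited signal of each library is a read count divided by a size factor. A size factor found for each library brought 100% of its values within 0.001 of a whole number. The whole reads of the 1428 genes sum to between 1202677 and 2180787 per library, which is not the library depth; that depth is unknown. The deposited log2 fold change, p-value and adjusted p-value are the authors', and the deposited adjusted values imply 19985 genes. The 18 genes with a deposited adjusted p of 1 were not counted among those below a threshold.

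Groups and replicate numbers came from the titles. Libraries of a group differed beyond counting noise (chi-square of 19.8 or more per degree of freedom) and were kept apart. KO replicate 4 differed most, at 193.5 to 267.1 against the other KO libraries, which gave 19.8 to 25.4 among themselves. WT replicate 4 gave 61.0 to 94.2 against the other WT libraries, which gave 24.7 to 33.6. The highest sum of reads over the listed genes, 2180787, was that of KO replicate 4. Ratios are log2 of the KO mean over the WT mean. The whole reads were refitted with edgeR 4.0.16 (quasi-likelihood, checked on simulated data) and DESeq2 1.42.0 in R 4.3.3, adjusted over 19985 genes. Over the 1428 genes edgeR called 0 at an adjusted p below 0.05 and 1112 at an unadjusted p below 0.05; DESeq2 called 37 and 1355. These fits take their spread from selected genes.

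Named genes are Nt5e, every listed member of the pathway lists, and the 6 highest and 6 lowest r to Nt5e among genes with a symbol, a mean of at least 50 normalized counts and r of at least 0.5 in size with the same sign in each group. Symbols were matched by name or by an unambiguous RefSeq synonym. Nt5e, the lists and the tests were chosen with earlier results of these data known. Ighg2b, Cx3cl1 and the marker genes were named outside that rule.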

Additional observations from a re-analysis of the deposited data

Results flagged for a closer look

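In groups of 4 libraries, a library was set apart when its gap to the nearest of the others exceeded Dixon's 95% limit as a share of the group's range. This was examined in 38 groups, those of Nt5e, the 7 listed purine pathway genes and the genes named by likeness, and 4 libraries were set apart; chance sets apart about 1 group in 20. For Nt5e itself the lowest WT library, replicate 3 at 2508 normalized counts, had a gap of 0.832 of the range, just past the limit. WT replicate 3 was also set apart for Cyb5r1, at 582.5, a gene named because it varies with Nt5e. KO replicate 4 was set apart as the highest KO library for Entpd8, at 4436, and for P2ry10, at 83.2.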

How the results depend on the processing

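The log2 ratio of Nt5e was 0.64, and stayed within 0.01 of that with pseudocounts of 1 or 0.1, in the authors' deposited table, and in edgeR and DESeq2 fits of the whole reads. Scaling by TMM over the listed genes moved the median of all listed genes by -0.17 and gave 0.48 for Nt5e, with all 4 KO libraries still above all 4 WT libraries. Under TMM, KO replicate 4 (3801) stood beside KO replicate 1 (3795) as a low KO library. Leaving out 1 library gave 0.59 (WT replicate 3) to 0.71 (KO replicate 1). With the replicate number as a block, edgeR gave 0.64. The numbers are not stated to pair libraries, and same-numbered libraries deviated together with r from -0.38 to 0.19 over 923 genes. That block left 0 genes at an adjusted p below 0.05 and 559 at an unadjusted p below 0.05, against 0 and 1112 without it.

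The number of genes with r to Nt5e of at least 0.8 in size was 9. It was 23 by Spearman's rho, 14 with no filter on the mean, and 10 to 45 when 1 library was left out, where fewer points make large values more frequent. At a deposited p below 0.01, 1 purine pathway gene, Adora3, was left of 7. TMM turned the direction of none of the 7; these alternatives for single pathway genes were chosen after seeing the data. The table holds selected genes alone, so no statement covers genes outside it.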
